A study of Gossypium hirsutum with 3 samples.

Results

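Cytoskeleton genes of cotton fiber initials were followed on the arrays through 6 genes, of the 11143 represented. They were the actin gene Contig1771, the villin gene Contig2814, the myosin genes TMIRS_168_G01.F and Contig3026, the tropomyosin-related gene Contig5634 and the tubulin gene GhBM356393. The genes were chosen by their descriptions and with their ratios on these arrays known, so their ratios are given as a description, without a test. Gene names are those of the array's contigs (assembled cDNA sequences) and singletons (single cDNA sequences). Of the 6 names, 0 matched the reference gene table, so no genome position is given.

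Fiber initials are cells of the ovule epidermis that have just begun to bulge from the ovule surface at 1 dpa (day post anthesis). RNA of 1 dpa fiber initials and RNA of whole 1 dpa ovules of field grown upland cotton were labeled with Cy3 (green) and Cy5 (red) and hybridized together on each of 3 arrays. By the methods both were polyribosomal RNA, from the cultivars DES119 and ST4793R, whereas the labels name total RNA, and the cultivar of a given array is not given in the sources used here. The initials were shaken from frozen ovules of many bolls, replicates came from different days, and whole ovules carry their initials along with all other ovule cells.

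Actin filaments and microtubules are the scaffolds of plant cells. Actin bundles, held together by proteins such as villin and fimbrin, serve as tracks on which myosin motors move organelles and vesicles. Microtubules, built of alpha- and beta-tubulin, guide the laying down of cellulose in the wall, carry kinesin motors and form the spindle and the phragmoplast of dividing cells. In growing cotton fibers both scaffolds are known for their part in shaping and extending the cell.

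The direction of the ratios is not settled by the sources. By the sample codes in the scanner files, SP2 RNA was green on array 1 (code SP2A) and array 3 (SP2C) and red on array 2 (SP2A again), and SP1 RNA (SP1A, SP1F and SP1E) took the other dye. The codes thus make array 2 the dye swap, whereas the labels call array 3 the swap. Ratios of red over green correlated at -0.580 over genes between arrays 1 and 2, at 0.522 between arrays 1 and 3 and at -0.810 between arrays 2 and 3, and genes do not replicate each other. All ratios below set SP2 RNA over SP1 RNA. By the label of array 1, SP2 is the RNA of the fiber initials, and by the labels of arrays 2 and 3 it is that of the ovules, in which case every sign turns. Of 5 genes known from fiber initials, 5 had a positive mean, from 0.37 to 1.29 on the log2 scale, and 2 passed the test described below for other genes. The arrays did not all agree. The acetyltransferase gene GhACY had -0.73, 1.84 and 1.78 on arrays 1, 2 and 3. The others were positive on each array, with values down to 0.02 (MYB2, array 3) and 0.03 (GhRDL, array 1). Of 7 genes of dividing cells, such as histones, 7 had a negative mean, from -3.33 to -1.32, and 7 passed. Among all genes tested, 3.95% passed as higher and 8.31% as lower. These shares are for scale only, since the marker genes were chosen with earlier results of these data known. The shares of all genes with a positive or a negative mean were not computed. Arrays 1 and 2 share the code SP2A and thus perhaps a harvest, so n = 3 counts arrays and the spread between them may in part be technical.

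The 6 genes had 18 probes in 20 spots, and all passed the filter on dim probes. Of 120 channel values of these spots, 117 counted as above background and 0 were saturated. Green was judged by the scanner's flag and red against negative controls, so the 117 include green values near or below the negative controls. The lowest such case was 74.5 at probe 1 of TMIRS_168_G01.F on array 1, against a median of 82.8. Median signals over all gene spots, minus local background, were 182 to 249 scanner units in green and 131 to 311 in red. Signals are set against each other only within a gene, since probes differ in brightness. Where signals of both RNAs are said below not to overlap, this is description only. The share of all genes without such an overlap was not computed, and the genes were chosen with their ratios known.

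Actin is the subunit of the filaments themselves. Contig1771 had mean signals of 16696, 11047 and 10729 in SP2 RNA on arrays 1, 2 and 3, against 4904, 2285 and 3190 in SP1 RNA. The lowest SP2 signal was above the highest SP1 signal. After normalization its log2 ratios were 1.92, 1.19 and 1.19, with a mean of 1.43 ± 0.42 (SD, n = 3), which is 2.70-fold. In RNA of whole tissues, fewer cells of a type and less RNA per cell cannot be told apart. This gene was measured by a single probe in 3 spots, and the spots differed little, from 1.84 to 1.98 on array 1, 1.13 to 1.24 on array 2 and 1.08 to 1.25 on array 3. Which array was highest depended on the normalization. With the deposited ratios, which were background-subtracted but not dye normalized, the values were 1.77, 2.27 and 1.75 and array 2 was highest. Actins form a family of closely similar genes, and how far the probe also bound other actin transcripts was not tested.

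Villin bundles actin filaments and responds to calcium. Contig2814 had mean signals of 2083, 3811 and 2011 in SP2 RNA, against 1024, 528 and 477 in SP1 RNA on arrays 1, 2 and 3. Again the groups did not overlap, although array 1 had the smallest difference. The log2 ratios were 0.98, 1.92 and 1.53, with a mean of 1.47 ± 0.47 (SD, n = 3). Its 4 probes gave 12 ratios, of which 12 were positive. On array 1 they ran from 0.53 at probe 1 to 1.36 at probe 4, the probe with the strongest signal (6072 in SP2 RNA and 2719 in SP1 RNA). On array 2 they ran from 1.73 to 2.12 and on array 3 from 1.22 to 1.71.

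**Figure D1:**
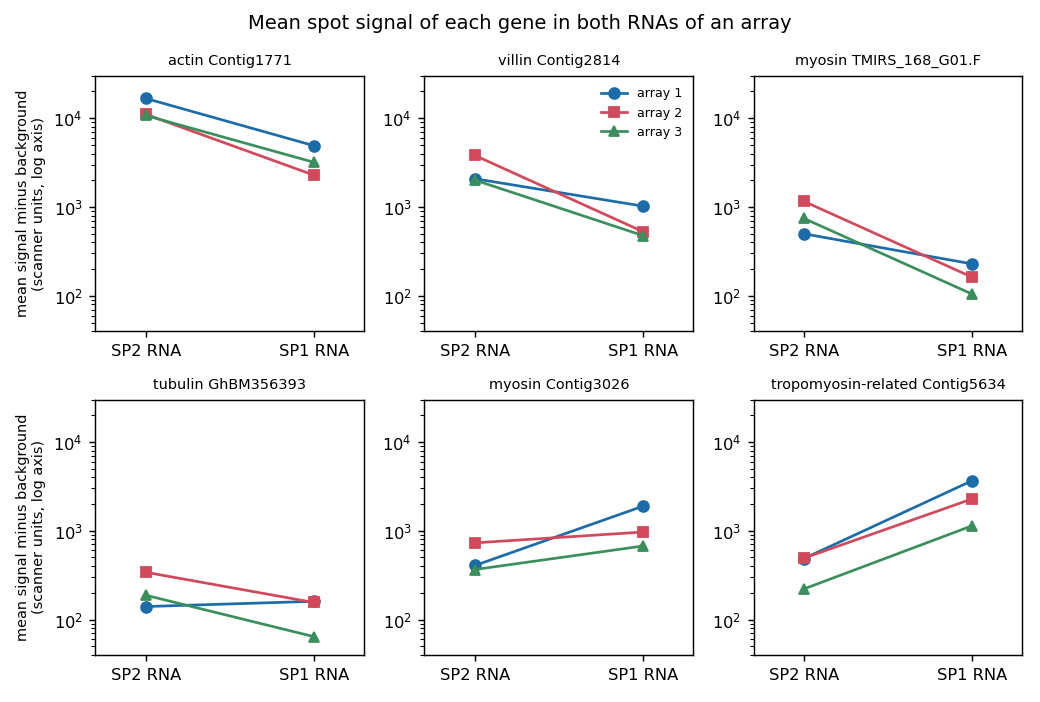
Mean spot signal minus local background of each gene, in scanner units on a log axis, in the SP2 RNA and the SP1 RNA of the same array, before dye normalization. Lines join both RNAs of an array. The lines of actin, villin and myosin TMIRS_168_G01.F fall toward SP1 RNA on each array, those of myosin Contig3026 and tropomyosin-related Contig5634 climb, and those of tubulin cross.

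Myosins are the motors that walk on actin filaments, and the myosin genes stood on opposite sides. TMIRS_168_G01.F, described as an unconventional myosin heavy chain, had mean signals of 499.97, 1159 and 745 in SP2 RNA, against 229, 163 and 105 in SP1 RNA. All SP2 signals lay above all SP1 signals. Its log2 ratios were 0.94, 1.76 and 1.59 on arrays 1, 2 and 3, with a mean of 1.43 ± 0.44 (SD, n = 3). The 3 probes disagreed in size. Probe 3 had 1.50, 2.36 and 2.33, probe 2 had 1.00, 2.05 and 1.94, and probe 1 had 0.32, 0.88 and 0.51. Probe 1 was not well above background in SP1 RNA on any array, with signals of 47.1, 43.8 and 15.0, against 74.5, 94.3 and 53.9 in SP2 RNA. The size of its ratios is thus poorly determined. On array 1 even its green SP2 signal lay below the median of green negative controls, 82.8. Without it the mean of the gene was 1.86, a setting added after the data were seen.

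Contig3026, described as a putative myosin, was the opposite case. It had mean signals of 406, 730 and 366 in SP2 RNA, against 1890, 967 and 673 in SP1 RNA. The ranges of the raw signals overlapped between arrays, while within each array the SP1 signal was higher. The log2 ratios were -1.93, -1.07 and -1.37, with a mean of -1.46 ± 0.43 (SD, n = 3). Its 3 probes gave 9 ratios, of which 9 were negative, from -2.03 to -0.83. The deposited ratios spread more, with -2.15, -0.61 and -1.11 on arrays 1, 2 and 3. The myosin means of 1.43 (TMIRS_168_G01.F) and -1.46 (Contig3026) thus lay on either side of 0, with arrays spread over 0.82 and 0.86 log2 units.

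Tropomyosin is a coiled-coil protein that lies along actin filaments in animals and yeast. Contig5634, described as tropomyosin-related, had the ratio farthest from 0 among the 6 genes and the smallest spread. Its mean signals were 487, 491 and 221 in SP2 RNA, against 3657, 2281 and 1136 in SP1 RNA. The highest SP2 signal was below the lowest SP1 signal. The log2 ratios were -2.31, -2.40 and -2.13, with a mean of -2.28 ± 0.14 (SD, n = 3), or 4.86-fold. Of its 12 probe ratios, 12 were negative. The probes spread more than the arrays, with means of -1.36, -2.14, -2.70 and -2.92 at probes 1, 2, 3 and 4. Probe 1 had the smallest difference and, in SP1 RNA, the dimmest signals (254, 404 and 120), whereas probe 4 had the brightest (11747, 6480 and 3367). Background correction with an offset draws the ratios of dim spots toward 0 by construction. Before that correction, signals of probe 1 minus local background were 104, 129 and 53.0 in SP2 RNA. The part of the offset in the spread of the probes was not tested.

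Tubulin was the gene with the ratio nearest to 0. GhBM356393, listed as a tubulin among the study's benchmark genes, had mean signals of 140, 341 and 188 in SP2 RNA, against 160, 156 and 64.2 in SP1 RNA. The groups overlapped, and on array 1 the SP1 signal was the higher. Its green SP2 signals on array 1 were 146, 165 and 109.8 at the 3 probes, where negative control spots had a median of 82.8. The log2 ratios were -0.13, 0.66 and 0.75, with a mean of 0.43 ± 0.49 (SD, n = 3), smaller than its spread. The mean was 0.71 without array 1, 0.31 without array 2 and 0.27 without array 3. All 3 probes were lowest on array 1. Probe 1 had -0.0045, 0.37 and 0.58 on arrays 1, 2 and 3, probe 2 had 0.16, 0.61 and 0.64, and probe 3, with the widest spread, had -0.55, 1.01 and 1.04. The deposited ratios of this dim gene were -0.21, 1.09 and 1.53, with a mean of 0.80.

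**Figure D2:**
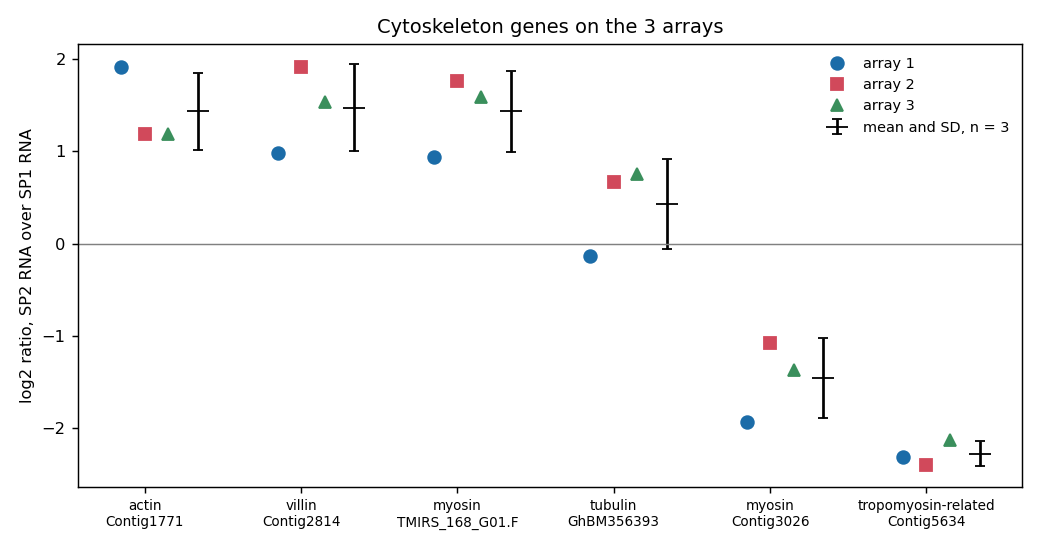
Normalized log2 ratio of SP2 over SP1 RNA of each gene on arrays 1, 2 and 3, with the mean and SD over the 3 arrays beside them. Actin, villin and a myosin have means of 1.43, 1.47 and 1.43, tubulin straddles 0, the other myosin has a mean of -1.46, and the tropomyosin-related gene one of -2.28 with the tightest arrays.

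In order of their means, villin, actin and myosin TMIRS_168_G01.F differed by 0.04 log2 units or less, far within their spread over arrays, and tubulin, Contig3026 and Contig5634 followed. Of the 6 genes, 5 had a single sign on all 3 arrays, the exception being tubulin. Such a single sign was held by 44.0% of the 11081 genes tested, positive in 20.9% and negative in 23.1%, shares that are given for scale only, since the ratios were known when the genes were chosen. The means of actin, villin and TMIRS_168_G01.F were above those of 99.7% of all genes tested, and that of tubulin above 90.3%. The mean of Contig3026 was above 1.98% and that of Contig5634 above 0.442%. Array 1 gave the lowest value for villin, TMIRS_168_G01.F, tubulin and Contig3026 and the highest for actin. As the dye swap, array 2 differed from the mean of arrays 1 and 3 by -0.36 for actin, 0.66 for villin, 0.50 for TMIRS_168_G01.F, 0.58 for Contig3026, -0.17 for Contig5634 and 0.35 for tubulin. With a single swapped array, a dye effect and an array effect cannot be told apart.

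**Figure D3:**
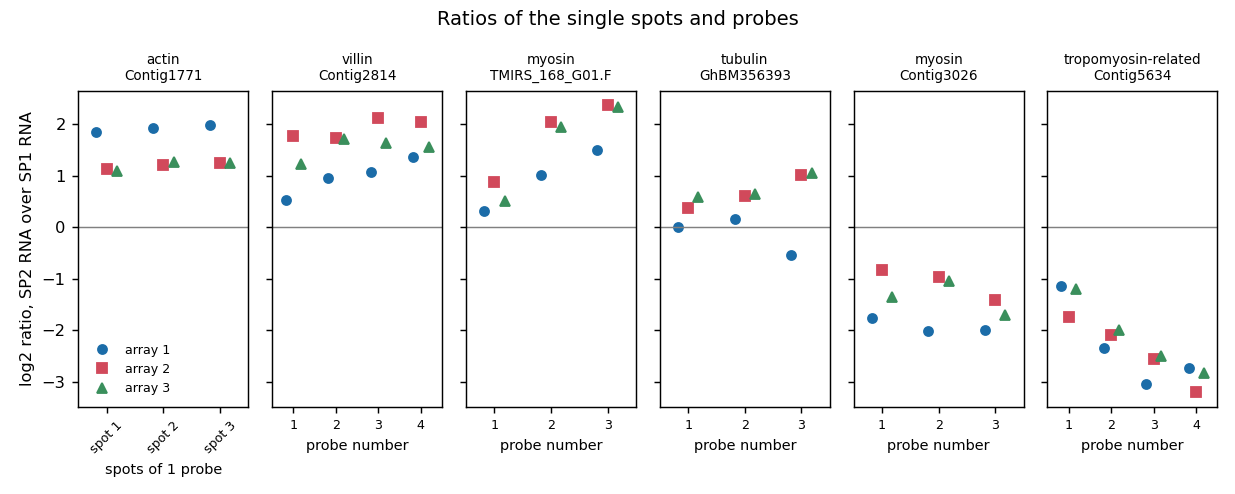
Normalized log2 ratio of SP2 over SP1 RNA at each probe (for actin, at each spot of its single probe) on arrays 1, 2 and 3. The signs are shared by all probes of a gene on all arrays except in tubulin, where 2 of 3 probes are below 0 on array 1, the lowest at -0.55, and sizes vary most among the probes of the tropomyosin-related gene and of myosin TMIRS_168_G01.F.

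Turned by the labels, as fiber over ovule, array 1 ran against arrays 2 and 3 for 5 of these genes. Contig1771 then had 1.92, -1.19 and -1.19, with a mean of -0.15 ± 1.79 (SD, n = 3), and Contig3026 had -1.93, 1.07 and 1.37, with a mean of 0.17 ± 1.83. The means were -0.82 ± 1.57 for Contig2814, -0.81 ± 1.51 for TMIRS_168_G01.F and 0.74 ± 2.65 for Contig5634, each smaller than its spread. Only tubulin kept a single sign, with -0.13, -0.66 and -0.75 and a mean of -0.52 ± 0.34.

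The likeness of patterns was measured as the distance between the log2 ratios of genes over the 3 arrays, where 0 means equal values on each. Villin Contig2814 and myosin TMIRS_168_G01.F were 0.17 apart. This was nearer than the nearest gene outside the 6, which was TMIRS_064_G08.F, a putative mitochondrial processing peptidase, at 0.29 from villin, and TMIRS_124_F12.F, a dihydrolipoamide acetyltransferase, at 0.21 from the myosin. TMIRS_124_F12.F was also the second nearest to villin, at 0.32. The distances of this myosin include its probe 1, which was near background. Without that probe its mean was 1.86, against 1.47 for villin, so the nearness of villin and this myosin depended on it. Actin Contig1771 had few genes like it, with 2 within a distance of 0.5, Contig7405 (1.81, 1.45 and 1.43), whose match to a ribosomal protein is weak, and TMIRS_144_A11.F. Within the same distance lay 24 genes of villin, 32 of TMIRS_168_G01.F, 44 of Contig3026, 17 of Contig5634 and 636 of tubulin. The nearest to Contig5634 was Contig2472, described as a phytochrome-associated protein, at 0.25, followed by Contig2694, without a named function. After TMIRS_124_F12.F, the nearest to TMIRS_168_G01.F was Contig18039, described as a predicted GPI-anchored protein, at 0.23. Contig15475 and Contig16939, nearest to Contig3026, also had no named function, and TMIRS_036_B05.F and Contig1478, nearest to tubulin, were not described. With 3 arrays as points, and the dye of each array shared by all genes, the distances are descriptive.

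The other genes of the cytoskeleton were taken from the study's table by their description, 17 genes in all. The study drew up that table partly on differences in these samples, so the list is independent evidence neither of a direction nor of a high share of calls. Of the 17, 4 rose and 8 fell in SP2 RNA against SP1 RNA at an adjusted p under 0.05 by limma, and 5 did not pass the test. Among all genes tested, 3.95% rose and 8.31% fell by the same rule, 12.3% in all, and the median log2 ratio was 0.04, against -0.43 over the list, values given for scale only. The counts over all genes were 438 and 921, a split that became 163 and 610 with plain background subtraction and median centring, and 1121 and 878 without array 1. At the study's own threshold (2-fold and an unadjusted p of 0.05), 2 of the 17 rose and 7 fell, whereas 1.73% and 4.73% of all genes did, 6.46% in all. Without the 4 genes whose description rests on a weak match, 3 rose and 6 fell, a setting added after the data were seen.

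For the 17 genes of this list, SE is the moderated SE of limma, which draws on the spread of all genes. It can be smaller or larger than the SE from the 3 arrays of a gene alone. Actins rose together, 3 of 3. Contig4588 had log2 ratios of 0.52, 1.02 and 1.01 on arrays 1, 2 and 3, with a mean of 0.85 ± 0.16 (SE, n = 3; adjusted p = 0.0213). Contig5392 had 0.70, 0.83 and 1.16, with a mean of 0.90 ± 0.15 (adjusted p = 0.0153). Contig4681, an actin-like gene, had 0.44, 1.31 and 1.54, with a mean of 1.10 ± 0.23 (adjusted p = 0.0290). Unlike Contig1771, the 3 genes had their lowest ratio on array 1. Contig4588, with a single probe, had signals of 6946, 13238 and 11538 in SP2 RNA, against 5464, 2930 and 3841 in SP1 RNA. The 3 calls were lost with median centring in place of loess, although the means of 1.22, 1.28 and 1.11 were no smaller (adjusted p from 0.0588 to 0.0978), and with the deposited ratios (0.0616 to 0.0930). That of Contig4681 was also lost with the median over probes (0.0611). That of Contig4588 was lost with plain subtraction (0.0792), without array 2 (0.0866) and without array 3 (0.0612), and that of Contig5392 without array 3 (0.0644). In fits without array 2, without array 3 or with a dye term, the adjusted p of the 17 genes followed the size of the mean alone. Over all genes, limma there gave smallest adjusted p of 2.45e-33, 1.73e-49 and 9.71e-50. A call in these fits is thus a cut on size that does not weigh the spread of a gene.

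Among proteins that bind or bundle actin, the second villin gene, Contig16351, had 0.01, 1.73 and 1.21, with a mean of 0.98 ± 0.31 (SE, n = 3; adjusted p = 0.0999). Its SD over the arrays was 0.88. It had signals of 2315, 7197 and 3302 in SP2 RNA, against 2237, 1067 and 959 in SP1 RNA, so that both RNAs were nearly equal on array 1 alone. Without array 1 it passed the test, with a mean of 1.47 (adjusted p = 0.0169). It also passed without array 3 (mean of 0.87, 0.0262) and with a dye term (mean of 1.17), fits in which a call is a cut on size. It did not pass without array 2 (0.251), with median centring (0.234), plain subtraction (0.194) or the deposited ratios (0.179). Nor did it pass with dim probes kept (0.125) or with the median over probes (0.136). The fimbrin-like genes, of a protein that cross-links actin filaments, had means of -0.28 ± 0.23 (TMIRS_102_E08.F) and -0.43 ± 0.33 (Contig13389, a weak match). For both fimbrin-like genes the mean turned positive without array 1, to 0.06 and 0.11. The singleton TS_1-03-08_G06_LibSeq2_01Dec03_018.ab1, similar to a mouse protein that binds alpha-actinin, a cross-linker of actin in animals, fell with -1.50 ± 0.15 (adjusted p = 0.00287), and was called under each normalization tried.

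The other myosins were also divided. Contig14543, described as a myosin heavy chain-like protein, fell, with log2 ratios of -1.55, -1.13 and -0.99 and a mean of -1.22 ± 0.16 (SE, n = 3; adjusted p = 0.00735). Contig1210 fell with -0.68 ± 0.14 (adjusted p = 0.0299) and TMIRS_083_H08.F rose with 1.10 ± 0.13 (adjusted p = 0.00569), but their descriptions as myosins rest on weak matches. Apart from turning the arrays by the labels, another threshold and the ordinary test without moderation, 10 alternatives were run. A count over these 10 does not measure stability. Keeping dim probes and leaving out saturated spots left the means of the list unchanged. The fits without array 2, without array 3 or with a dye term cut on size. Contig1210 was called in 4 of them, losing its call without array 2 (adjusted p = 0.0975) or array 3 (0.104), with median centring (0.255), plain subtraction (0.208), the deposited ratios (0.570) and a dye term (0.0765). Contig14543 lost its call with median centring (0.0573) and the deposited ratios (0.127), whereas TMIRS_083_H08.F was called in 10 of the 10. By the ordinary test without moderation TMIRS_083_H08.F was not called (adjusted p = 0.215).

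**Figure D4:**
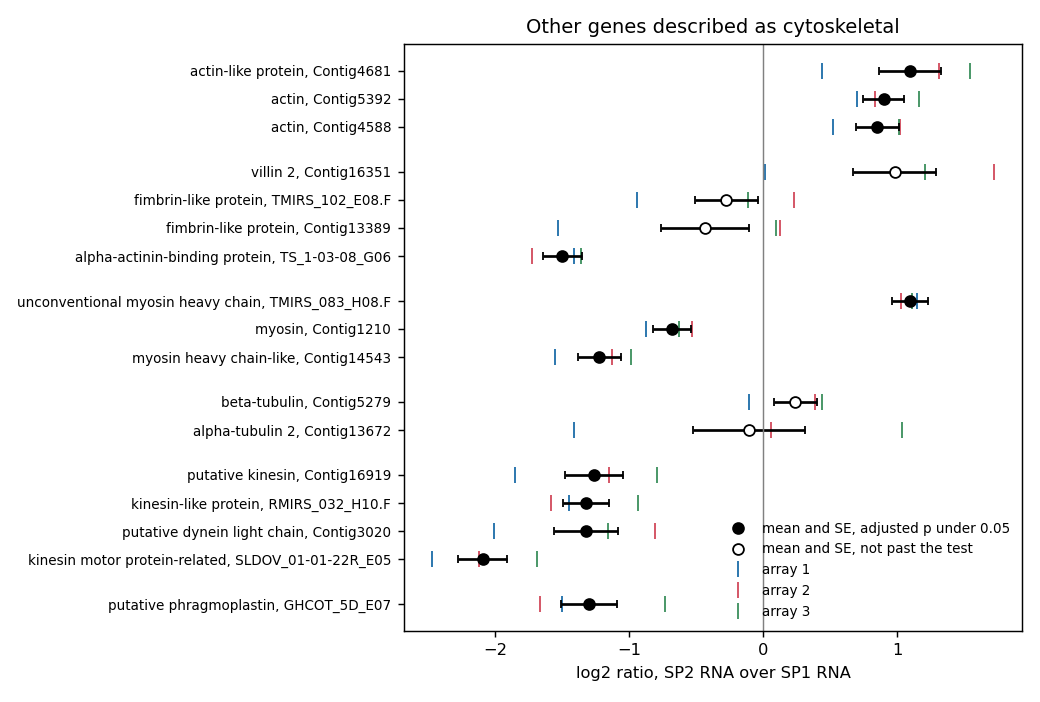
Log2 ratio of SP2 over SP1 RNA of the 17 other genes described as cytoskeletal, grouped by class. Circles give the mean over 3 arrays and bars the moderated SE of limma, with circles filled where the adjusted p was under 0.05. Ticks give the single arrays. Actins lie to the right of 0, the genes grouped under microtubule motors and the phragmoplastin gene to the left, and tubulins around 0.

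Tubulins did not pass the test, 0 of 2. Beta-tubulin Contig5279 had -0.11, 0.39 and 0.44, with a mean of 0.24 ± 0.16 (SE, n = 3; adjusted p = 0.472), and was like GhBM356393 negative on array 1 and positive on arrays 2 and 3. Alpha-tubulin Contig13672 had the widest spread of the list, with -1.41, 0.06 and 1.03 and an SD of 1.23 over the arrays. Its mean was -0.11 ± 0.42 (moderated SE, adjusted p = 0.919). Its mean was positive without array 1 (0.55) and under other scalings, at 0.05 with loess replaced by median centring, 0.01 with plain subtraction and 0.27 with the deposited ratios. Its signals were 664, 2657 and 1674 in SP2 RNA, against 2274, 1587 and 595 in SP1 RNA.

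Genes grouped here under microtubule motors, kinesins and a weak match to a dynein light chain, fell, 4 of 4. SLDOV_01-01-22R_E05_InvR_11Feb04_039.ab1, related to kinesins, had log2 ratios of -2.47, -2.12 and -1.69 on arrays 1, 2 and 3, with a mean of -2.09 ± 0.18 (SE, n = 3; 4.27-fold; adjusted p = 0.00216). Its signals were 299.7, 358 and 174 in SP2 RNA, against 2041, 1302 and 534 in SP1 RNA. The kinesin-like RMIRS_032_H10.F had -1.33 ± 0.17 (adjusted p = 0.00675) and the putative kinesin Contig16919 had -1.27 ± 0.22 (adjusted p = 0.0159). Contig3020, a weak match to a dynein light chain, had -1.33 ± 0.24 (adjusted p = 0.0187). A phragmoplastin gene, GHCOT_5D_E07_T3_26Aug03_055.ab1, of a dynamin-like protein of the forming cell plate, fell as well, with -1.30 ± 0.21 (adjusted p = 0.0126). With median centring the calls of Contig16919 (adjusted p = 0.158), Contig3020 (0.0845) and the phragmoplastin gene (0.0573) were lost. With the deposited ratios these were lost too (0.296, 0.0817 and 0.112), as was that of RMIRS_032_H10.F (0.0878), and with plain subtraction that of Contig16919 (0.0776). SLDOV_01-01-22R_E05_InvR_11Feb04_039.ab1 was called in 10 of the same 10 alternatives, but not by the ordinary test without moderation (adjusted p = 0.257). Beside these stand the 7 of 7 genes of dividing cells that fell in SP2 RNA, among them topoisomerase II (Contig17288, -3.33) and histone H4 (Contig15160, -2.26). Of all genes tested 8.31% fell, and these 7 were chosen with earlier results of these data known. Their part in the ratios of the motors and of the tropomyosin-related gene was not tested.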

How the data were processed

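The scanner files deposited by the authors hold mean pixel intensity per spot, with the local background, for both dyes, quantified with Agilent Feature Extraction and not normalized. The deposited value table holds the log2 of background-subtracted red over green, neither centred nor turned, which matched the scanner files at 42034 of 42034 spots (tolerance 1e-08).

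Signals were corrected with normexp (offset 50) and normalized within arrays by loess on gene spots, in limma 3.58.1 (R 4.3.3). Green counted as above background by the scanner's flag, red at 2.6 robust SD over the median of negative controls. Probes above background in either channel on at least 2 arrays (38713 of 40372) were averaged to 11081 genes. Spots of 65000 or more counted as saturated. Ratios were tested with lmFit and eBayes over all genes, adjusted by Benjamini-Hochberg, after turning arrays by the sample codes. The SE given for tested genes was the moderated SE of that fit. The script was tested on simulated data. The number of arrays, 3, limits the precision.

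The members and lists were chosen with earlier results of these data known. Named were the 6 genes, the list of other cytoskeleton genes, the genes of markers, and for each of the 6 genes the 2 nearest in ratios. Alternatives were other normalizations, orientations, filters, probe summaries, a dye term, thresholds, and arrays left out. The arrays of 10 dpa fiber and the probe sequences were not used here.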

Additional observations from a re-analysis of the deposited data

How the results depend on the processing

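Over 11 alternatives, the mean ratios of the 6 genes moved by less than their SD between arrays in 58 of 66 values. Much of this count was fixed in advance, so it does not measure stability. Leaving out an array or adding a dye term cannot move a mean of 3 arrays by its SD. The 6 genes had no saturated spots and their probes passed the filter, so the settings for these changed nothing. With the deposited ratios as given, in which the median of all genes stood at 0.25, Contig1771 moved to 1.93 and TMIRS_168_G01.F to 1.91. Turned by the labels, the means reversed to -0.15 (Contig1771), -0.82 (Contig2814), -0.81 (TMIRS_168_G01.F), 0.17 (Contig3026), 0.74 (Contig5634) and -0.52 (GhBM356393), since the labels turn arrays 2 and 3 alone. No other alternative, arrays left out included, reversed a mean of the 6 genes.

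Of the other cytoskeleton genes, those higher and lower in SP2 RNA numbered 4 and 8. They numbered 1 and 3 when arrays were median centred, 1 and 2 with the deposited ratios, 2 and 7 at the threshold of the study (2-fold, unadjusted p of 0.05), and 3 to 5 and 7 to 8 with an array left out. The ordinary test without moderation called 0 and 0 (9 of 17 at an unadjusted p under 0.05). Turned by the labels limma called 0 and 0 of the list and 0 and 0 of all genes, with 538 of all genes at an unadjusted p under 0.05.

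Over all genes, 438 were higher and 921 lower. The counts were 80 and 249 under median centring, 163 and 610 with plain background subtraction, 90 and 156 with the deposited ratios, 1 and 1 with the ordinary test, and 192 and 524 at the threshold of the study. With an array left out they were 222 to 1121 and 772 to 1010, the 222 without array 2 and the 1121 without array 1. Both RNAs of an array were paired throughout, since their ratio within the array was the value tested. Dim signals limit the size of the ratios of tubulin, of probe 1 of TMIRS_168_G01.F, of probes 1 and 2 of Contig5634 and of probe 1 of Contig3026. On array 1, green SP2 signals were 104.3 and 91.1 at these probes of Contig5634 and 108.8 at that of Contig3026. Green negative controls there had a median of 82.8. The cause of these shifts was not tested.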
